A study of Mus musculus with 18 samples.

Results

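The 10 genes described here encode the core enzymes that remove superoxide and hydrogen peroxide: the 6 peroxiredoxins (Prdx1 to Prdx6), the 3 superoxide dismutases (Sod1, Sod2 and Sod3) and catalase (Cat). They were chosen by gene name, and all 10 were found among the 35560 genes present in both deposited count tables. All 10 also passed the filter on low counts, as did 14623 genes in all. The study sequenced poly(A) RNA from whole hearts of male wild-type C57BL/6 mice that all received ISO (isoproterenol), which stimulates beta-adrenergic receptors and injures the heart at sustained doses. The ISO group (6 libraries) received ISO at 2.5 mg/kg/day by subcutaneous injection in PBS for 21 days, with gavage of water. The ISO+100 nm PS group (6 libraries) and the ISO+1 µm PS group (6 libraries) received the same ISO and, by daily oral gavage over the same 21 days, polystyrene (PS) particles of that size at 50 mg/kg/day. No mice without ISO were analysed here, so each comparison asks what PS changed in hearts that were already under ISO. Libraries came from 2 providers, named as batches in the labels: batch 1 held 3 ISO, 5 ISO+100 nm PS and 4 ISO+1 µm PS libraries, and batch 2 held 3, 1 and 2.

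Superoxide is converted to hydrogen peroxide by the dismutases, and peroxiredoxins and catalase then reduce the peroxide. The enzymes divide by place: Prdx1, Prdx2, Prdx6 and Sod1 act mainly in the cytosol, Prdx3 and Sod2 in mitochondria, Prdx5 in several compartments, Prdx4 in the endoplasmic reticulum, catalase in peroxisomes, and Sod3 outside the cell, bound to the matrix and rich in vessel walls. The heart uses oxygen at a high rate, and its mitochondria are a steady source of superoxide. Most peroxiredoxins are recharged by thioredoxin, and Prdx1 is a known target of the stress factor Nrf2, which binds antioxidant response elements.

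Sequence upstream of these genes was read from RefSeq (GRCm38.p6), which held 8 of the 10 members and not Sod3 or Prdx6. The 250 bases before each start were searched on both strands for TGACNNNGC, the core of the antioxidant response element, and for TGANTCA, the palindromic AP-1 site. The first occurs in 10.2% of the 32851 RefSeq windows of this length and the second in 6.75%. Prdx1, the gene that fell, is shown because its window alone among the 8 held both motifs. The element core lies on the minus strand at -133 to -125 from the start, marked by capitals, and an AP-1 site overlaps it at -131 to -125. A further AP-1 site lies at -237 to -231. The window is chr4:116685349-116685598 on the plus strand.
Prdx1: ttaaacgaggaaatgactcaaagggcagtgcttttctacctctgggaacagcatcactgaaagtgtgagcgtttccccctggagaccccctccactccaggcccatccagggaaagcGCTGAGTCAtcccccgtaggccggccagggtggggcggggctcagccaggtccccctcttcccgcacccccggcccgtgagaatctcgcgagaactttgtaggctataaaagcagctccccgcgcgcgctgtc
Sod1 held 1 element core, read as GCGTGGTCA on the plus strand at -56 to -48, and the windows of Prdx2, Prdx3, Prdx4, Prdx5, Sod2 and Cat held neither motif. These matches describe letters only, and no binding was measured.

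Total counts ranged from 14032257 to 22600570 per library. A level is given in CPM, a gene's share of the library's counts scaled by TMM, which corrects for differences in RNA composition. The PS groups were each compared with the same 6 ISO libraries with batch as a model term, so the comparisons are not independent of each other. A gene was called at an adjusted p under 0.05 over all 14623 genes (edgeR). The p-values set the difference between groups against the spread between these libraries. A pair of ISO libraries stood apart: in replicate 1 genes of the mitochondrial genome took 42.4% of counts, and in replicate 2 only 13152 genes were detected. These 2 libraries held the lowest value for 5 of the 10 members and the highest for 4, and values without 1 or both of them are given with each member. The 8 cardiac myocyte markers were detected in every group, at a summed 35570 to 116500 CPM, and 1 of them (Pln) fell at both sizes. Macrophage markers gave 0 calls of 6. Of the 4 skeletal muscle markers tested 2 fell at 100 nm and 0 at 1 µm, with a sum of 127 CPM in ISO replicate 2 against 6.38 CPM or less in every PS library. The 1 adipocyte marker tested did not pass, and the summed adipocyte level was 85.4 CPM in ISO+100 nm PS replicate 1 and at most 5.89 CPM in the other 17 libraries. Of the annotated copies of the members, Prdx6b had 0 counts in every library. Prdx1-ps, Prdx2-ps1, Prdx2-ps2 and Prdx6-ps2 were found by name in batch 2 alone and had 0 counts in its libraries, so batch 1 gave no value for them.

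Divided by transcript length, the median levels in ISO hearts ran from Prdx5 (444 CPM per kb), Sod1 (333), Prdx2 (315), Prdx3 (189) and Prdx1 (127) to Sod2 (91.5), Prdx6 (78.0), Cat (55.0), Prdx4 (22.5) and Sod3 (13.6). Ranges of neighbours in this order overlapped except between Cat and Prdx4. In the 12 PS libraries the order ran Prdx5, Prdx2, Sod1, Prdx3, Prdx1, Sod2, Prdx6, Cat, Sod3 and Prdx4. Sod3 then stood at 24.9 CPM per kb and Prdx4 at 19.8, with overlapping ranges. The levels per kb rest on the longest coding transcript in GENCODE, which for Sod2 is 5861 bases and would give a higher level if a shorter form prevailed. Longest and shortest coding forms also differed widely for Prdx1 (2294 and 611 bases), Cat (2613 and 779) and Prdx6 (2387 and 959). The same held for Prdx5 (1262 and 501) and Prdx2 (1612 and 825), so the order depends on the length chosen.

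Sod3, the extracellular dismutase, rose and Prdx1, a cytosolic peroxiredoxin, fell at both particle sizes, and the other 8 members passed the test at neither. At 100 nm, 2 of 10 members were called, where 9.57% of all genes were called (3.88% higher and 5.69% lower). The same 2 were called at 1 µm, where 7.39% of all genes were called (2.89% higher and 4.5% lower). The median log2 fold change of the members was -0.21 at 100 nm and -0.27 at 1 µm, against -0.02 and -0.0022 for all genes. All 6 peroxiredoxins had negative estimates at both sizes, with medians of -0.46 and -0.38, although only Prdx1 passed, and on library totals, which move the median of all genes to 0.25 and 0.22, the estimates of Prdx4 (0.15 at 100 nm) and Prdx5 (0.12 and 0.031) were positive. Relative to those medians they were -0.096 for Prdx4 at 100 nm and -0.12 and -0.19 for Prdx5. In batch 1 alone the estimates of Prdx4 (0.060 at 100 nm) and Prdx5 (0.093 and 0.10) were positive too.

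**Figure D1:**
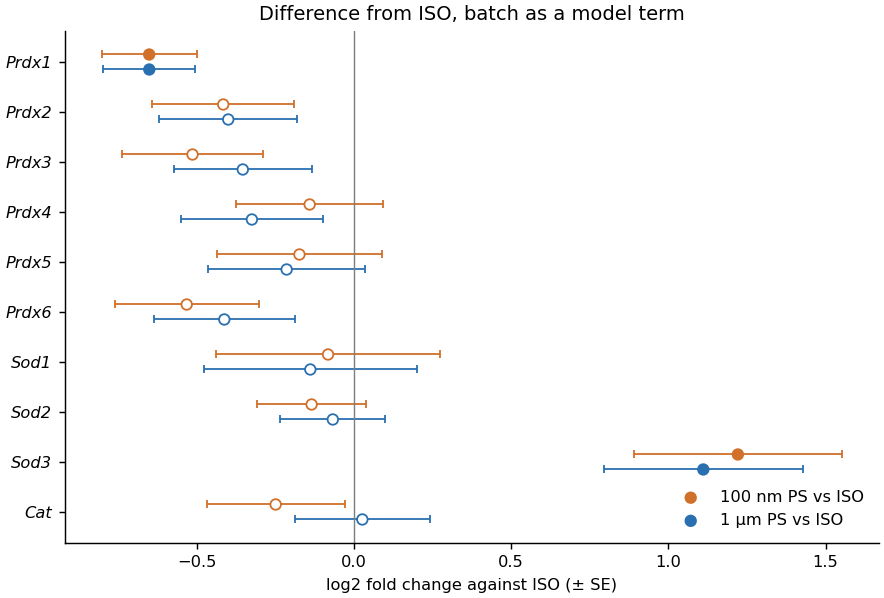
Log2 fold change against ISO (x axis, ± SE) of each member (y axis) at 100 nm and 1 µm, with batch in the model. Filled points passed an adjusted p of 0.05: Sod3 lies right of 0 and Prdx1 left of 0 at both sizes, and the 8 other members are open.

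Sod3 stood at 45.7, 9.11, 42.7, 55.8, 87.0 and 62.2 CPM in ISO replicates 1 to 6. In the ISO+100 nm PS libraries it stood at 127.5, 113.9, 92.6, 91.1, 80.3 and 106.9 CPM, and in the ISO+1 µm PS libraries at 117.6, 89.9, 108.8, 88.55, 93.6 and 90.0 CPM. Across all 18 libraries 1 PS library (80.3 CPM, ISO+100 nm PS replicate 5) fell within the ISO range, below ISO replicate 5, and the remaining 11 lay above every ISO library. Within each batch no PS library overlapped ISO, a separation seen in either direction in 13.4% of all genes in batch 1 and 33.4% in batch 2. The raw counts did not overlap at all, with 118 to 1181 in ISO and 1616 to 2718 in PS, as held in the higher direction for 6.9% of all genes.

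Sod3 was 2.33-fold higher at 100 nm (log2 1.22, SE 0.33, adjusted p = 0.0304) and 2.16-fold higher at 1 µm (log2 1.11, SE 0.32, adjusted p = 0.0416). For the mean of both PS groups the log2 difference was 1.17 (SE 0.29, adjusted p = 0.0132), a comparison in which 17.7% of all genes were called. Sod3 lay above the ISO mean of its own batch in 12 of 12 PS libraries. The estimate was larger in batch 1 (1.62 at 100 nm and 1.63 at 1 µm) than in batch 2 (0.65 and 0.41). Of these 4 only the 100 nm value of batch 1 passed alone (adjusted p = 0.0375 in edgeR). Fitted alone, batch 1 gave calls in 7.52% of genes at 100 nm and 3.96% at 1 µm, and batch 2 in 0.0488% and 0.0766%. The batch-by-group term for Sod3 had an adjusted p of 0.680. ISO replicate 2, the lowest library, moved the size: without it the log2 difference was 0.88 at 100 nm (adjusted p = 0.00755) and 0.80 at 1 µm (adjusted p = 0.00978). Without ISO replicates 1 and 2 it was 0.79 (adjusted p = 0.0424) and 0.72 (adjusted p = 0.0386). Corrected for GC content, which left 0 of all genes called at either size, it was 1.08 (adjusted p = 0.121) and 0.96 (adjusted p = 0.189), so that both calls ended.

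As a share of all dismutase counts, which needs no scaling between libraries, Sod3 made up 2.14% to 12.0% (median 6.63%) in ISO, 13.1% to 22.8% (median 15.2%) in ISO+100 nm PS and 11.5% to 20.4% (median 14.4%) in ISO+1 µm PS. The highest ISO share belonged to replicate 1, where Sod1 was lowest, at 521 of 4356 counts (12.0%, 95% Wilson interval 11.03% to 12.96%). Within batch 1 the highest ISO share was 12.0% and the lowest PS share 13.1%. Within batch 2 they were 8.54% and 11.5%. The groups thus did not overlap within either batch. The share also depends on Sod1 and Sod2, and in batch 2 both were lower in every PS library than in every ISO library. Their batch 2 means were 200.3 CPM in PS against 369.5 CPM in ISO for Sod1 and 472.1 against 582.1 CPM for Sod2. Intervals cover counting error only.

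**Figure D2:**
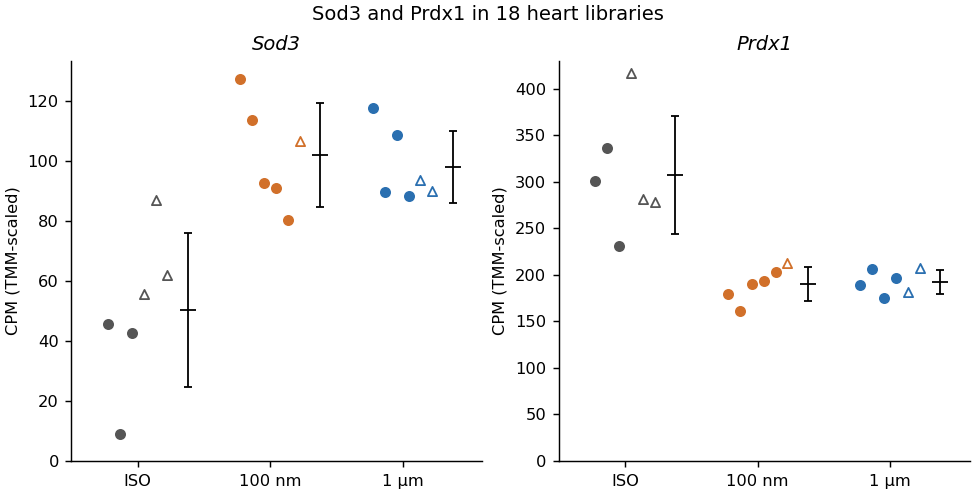
CPM (y axis, from 0) of Sod3 and Prdx1 in the ISO, 100 nm and 1 µm groups (x axis), 1 point per library, with filled circles for batch 1, open triangles for batch 2 and a bar for the mean ± SD (n = 6). For Sod3 a single PS library, at 80.3 CPM, lies below the highest ISO library (87.0 CPM), and for Prdx1 every PS library lies below every ISO library.

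Some markers of vessel and stromal cells rose beside Sod3. Over all genes 3.88% were called higher at 100 nm and 2.89% at 1 µm. Of 6 smooth muscle markers, 3 rose at both sizes (Acta2, Smtn and Lmod1), and Tagln (0.13 and -0.10 on the log2 scale) was at 0 in at least 1 library of the ISO and 100 nm groups. Myh11 (1.15 and 1.22) and Cnn1 (1.48 and 1.22) did not pass. The summed smooth muscle level was 199 to 911 CPM in ISO, 526 to 1103 CPM at 100 nm and 560 to 1055 CPM at 1 µm. In batch 1 the groups did not overlap, as held in either direction for 13.4% of all single genes. In batch 2 they overlapped, with 594 to 911 CPM in ISO, 1103 CPM at 100 nm and 891 to 1055 CPM at 1 µm. Of 6 fibroblast markers, 2 rose at 100 nm (Col1a1 and Pi16) and 1 at 1 µm (Pi16), while Dcn stood at -0.032 and -0.22 on the log2 scale, with sums of 623 to 1552 CPM in ISO, 1010 to 2114 CPM at 100 nm and 869 to 1897 CPM at 1 µm. Of 6 endothelial markers, 2 rose at 100 nm (Vwf and Esam) and 0 at 1 µm, with sums of 414 to 1510, 1345 to 2023 and 1392 to 2050 CPM.

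Set against 100 CPM of the smooth muscle markers, Sod3 stood at 4.57 to 13.8 CPM in ISO and 8.66 to 19.9 CPM in PS, and these ranges overlapped in both batches. Against 100 CPM of the fibroblast markers it stood at 1.46 to 4.03 CPM in ISO and 4.98 to 7.96 CPM in PS in batch 1, with no overlap, and at 6.48 to 8.89 and 8.82 to 10.8 CPM in batch 2, with overlap. Against the endothelial markers it stood at 2.20 to 3.41 CPM in ISO and 3.97 to 7.59 CPM in PS in batch 1, with no overlap, and at 4.91 to 6.20 CPM (median 5.76) and 4.39 to 6.55 CPM (median 5.41) in batch 2. ISO+100 nm PS replicate 1, the library with the highest adipocyte level, also had the highest Sod3 and the lowest Cat, and without it, as without replicate 2, 3 or 6 of that group, the Sod3 difference at 100 nm did not pass. The part of these cell types in the Sod3 result was not tested. In bulk tissue more cells of a type and more RNA per cell cannot be told apart.

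Prdx1, an abundant peroxidase and chaperone of the cytosol and nucleus, stood at 301.0, 335.8, 230.5, 416.7, 281.0 and 277.9 CPM in ISO replicates 1 to 6. It stood at 179.6, 161.4, 190.1, 193.4, 202.9 and 213.0 CPM in the ISO+100 nm PS libraries and at 189.4, 206.0, 175.1, 196.1, 181.2 and 207.1 CPM in the ISO+1 µm PS libraries. All 12 PS libraries lay below all 6 ISO libraries, and this held within each batch. Such a separation of ISO from both PS groups in the lower direction was seen in 0.239% of all genes. The PS libraries were also closer to each other (SD 15.1 CPM, n = 12) than the ISO libraries were (SD 63.7 CPM, n = 6).

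Prdx1 was 1.57-fold lower at both sizes. The log2 fold change was -0.65 at 100 nm (SE 0.15, adjusted p = 0.0182) and -0.65 at 1 µm (SE 0.15, adjusted p = 0.0192), and -0.65 for the mean of both PS groups (SE 0.13, adjusted p = 0.00394). The batches gave like sizes, -0.64 and -0.59 in batch 1 and -0.60 and -0.76 in batch 2, and only the 100 nm value of batch 1 passed alone (adjusted p = 0.0402 in edgeR). Without ISO replicates 1 and 2 the values were -0.555 (adjusted p = 0.0593) and -0.56 (adjusted p = 0.0402).

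The separation of Prdx1 rests on the scaling. Raw counts overlapped (3434 to 5364 in ISO and 3369 to 4950 in PS), and with library totals in place of TMM 1 PS library lay within the ISO range. On those totals the log2 fold change was -0.36 (adjusted p = 0.157) at 100 nm and -0.41 (adjusted p = 0.106) at 1 µm. Relative to the median of all genes on that scaling Prdx1 stood at -0.60 and -0.63. It also turned the balance of calls over all genes, from 567 higher and 832 lower to 1372 higher and 193 lower at 100 nm, and from 423 and 658 to 992 and 177 at 1 µm. The GC correction gave -0.33 (adjusted p = 0.257) and -0.32 (adjusted p = 0.332). As a share of all peroxiredoxin counts, Prdx1 made up 13.4% to 22.1% in ISO and 11.5% to 15.2% in PS, and these ranges overlapped. In batch 1 they also overlapped (13.4% to 22.1% and 12.9% to 15.2%), and in batch 2 they did not (14.04% to 18.7% and 11.5% to 13.9%).

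Prdx2, an abundant cytosolic peroxiredoxin that is especially rich in red blood cells, stood at 259.7, 797.7, 294.9, 623.9, 590.5 and 423.4 CPM in ISO. The ISO+100 nm PS libraries lay between 298.6 and 452.6 CPM (median 325) and the ISO+1 µm PS libraries between 306.5 and 447.7 CPM (median 343), and all 12 fell within the wide ISO range. The log2 fold change was -0.42 (SE 0.23, adjusted p = 0.230) at 100 nm and -0.40 (SE 0.22, adjusted p = 0.248) at 1 µm. Without ISO replicate 2, the highest library, it was -0.033 and -0.055, and without ISO replicates 1 and 2 it was -0.15 and -0.16. Without ISO replicate 1, the lowest library, it was -0.55 (adjusted p = 0.0846) and -0.53 (adjusted p = 0.0939). Prdx2 was then called for the mean of both PS groups (-0.54, adjusted p = 0.0417 in edgeR). With all libraries that value was -0.41 (adjusted p = 0.139). Summed erythroid markers ranged from 278 to 4022 CPM in ISO, from 342 to 1549 CPM at 100 nm and from 245 to 1263 CPM at 1 µm. Of the 6 tested 0 passed at either size. For the mean of both PS groups 2 of the 6 fell, where 17.7% of all genes were called. In batch 2 the sums were 1906 to 4022 CPM in ISO, 1549 CPM at 100 nm and 709 to 1263 CPM at 1 µm. The 3 ISO libraries highest in Prdx2 (replicates 2, 4 and 5) held 3217, 1906 and 4022 CPM of erythroid markers. Replicate 6, with less Prdx2 than replicate 4, held 2113 CPM of them, and the part of red cell RNA in Prdx2 was not tested.

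Prdx6, the 1-Cys cytosolic member that also has phospholipase activity, stood at 165.2, 379.0, 159.3, 213.2, 182.5 and 190.1 CPM in ISO. It ranged from 101.5 to 192.2 CPM (median 141) at 100 nm and from 117.3 to 239.3 CPM (median 150.1) at 1 µm. Log2 fold changes of Prdx6 were -0.53 (SE 0.23, adjusted p = 0.135) and -0.41 (SE 0.22, adjusted p = 0.244). In batch 1 it was -0.81 and -0.77 and in batch 2 -0.018 and 0.081. Without ISO replicate 2 the pooled values were -0.17 and -0.088, and without ISO replicates 1 and 2 they were -0.10 and -0.036. Without ISO replicate 1 alone they were -0.58 and -0.46.

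Sod1, the copper and zinc dismutase of the cytosol, was the most variable member. It stood at 25.2, 144.9 and 103.9 CPM in the ISO libraries of batch 1 and at 465.7, 360.3 and 282.5 CPM in those of batch 2, a 4.05-fold difference of means between batches within 1 treatment. The PS libraries varied less between batches: at 100 nm the ratio was 1.57 and at 1 µm 1.62. The PS values were 120.3, 123.1, 141.2, 109.3, 123.6 and 194.4 CPM at 100 nm and 107.5, 112.8, 132.0, 149.3, 164.4 and 242.0 CPM at 1 µm. The log2 fold change was -0.082 (SE 0.355, adjusted p = 0.900) and -0.14 (SE 0.34, adjusted p = 0.825). Without ISO replicates 1 and 2 it was -0.51 (adjusted p = 0.208) and -0.52 (adjusted p = 0.157).

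These small pooled values for Sod1 combine opposite estimates: 0.44 and 0.46 in batch 1, and -0.92 and -0.88 in batch 2, where all 3 PS libraries lay below all 3 ISO libraries. Such a separation within batch 2 was common among all genes (33.4%). The batch-by-group term for Sod1 had an adjusted p of 0.582 in edgeR (0.0724 before adjustment), so the batches were not shown to differ. No member passed that term, as against 12 genes (0.0821%) in all. At an unadjusted p under 0.05 the count of members was also 0 in this fit. With the GC correction the Sod1 term had an unadjusted p of 0.0191 (adjusted p = 0.32 in edgeR).

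**Figure D3:**
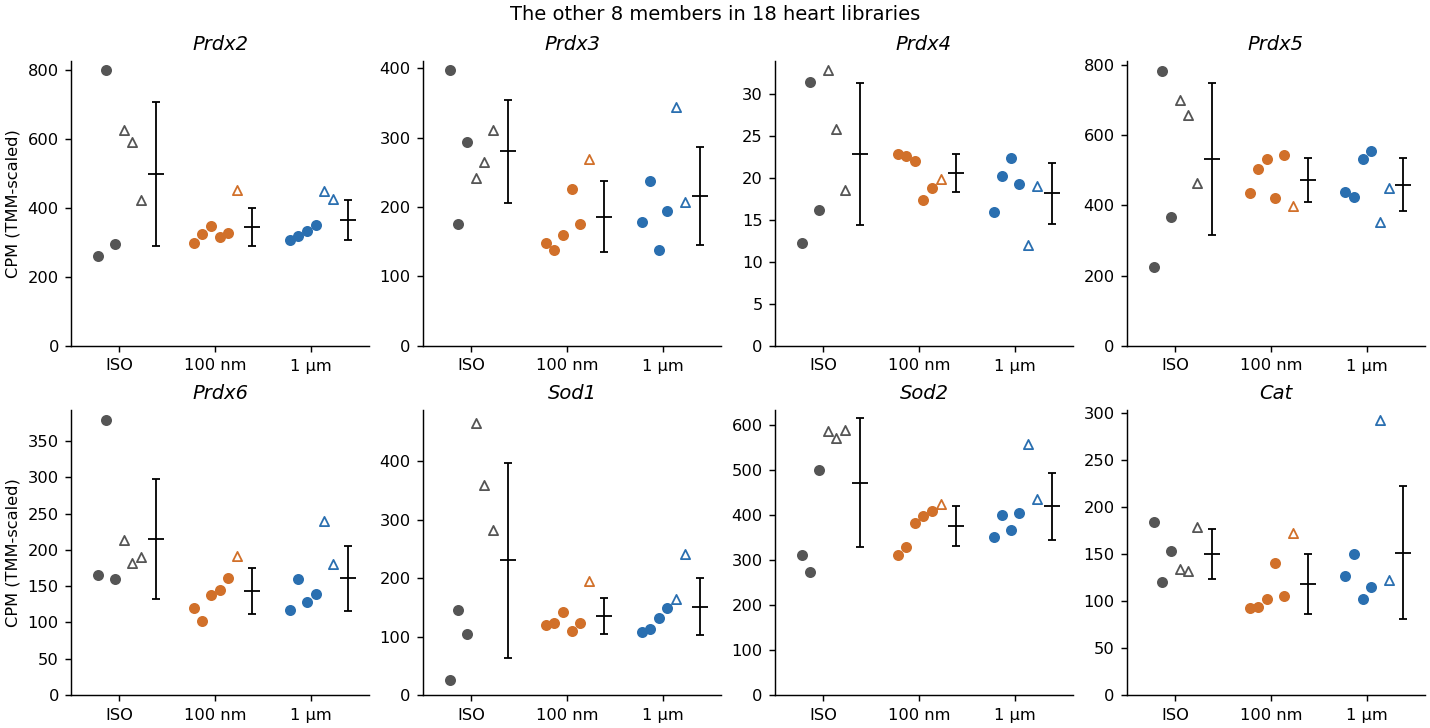
CPM (y axes, from 0) of the 8 members that passed at neither size, in the ISO, 100 nm and 1 µm groups (x axes), with filled circles for batch 1, open triangles for batch 2 and bars for the mean ± SD (n = 6). ISO libraries spread more widely than PS libraries for most members, and Sod1 in ISO ran from 25.2 to 465.7 CPM.

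The mitochondrial members were Prdx3, the main peroxide scavenger of the matrix, and Sod2, the manganese dismutase. Prdx3 stood at 397.1, 175.0, 293.1, 242.0, 264.3 and 310.5 CPM in ISO, between 138.7 and 268.7 CPM (median 167) at 100 nm and between 138.0 and 343.7 CPM (median 201) at 1 µm. Its log2 fold change was -0.51 at 100 nm (SE 0.22, unadjusted p = 0.0342, adjusted p = 0.141 in edgeR) and -0.35 at 1 µm (SE 0.22, adjusted p = 0.312). The groups overlapped, and batch 1 gave -0.77 and -0.63 where batch 2 gave -0.016 and -0.0070. Without ISO replicate 1, the highest ISO library, Prdx3 stood at -0.28 and -0.15, and without ISO replicates 1 and 2 at -0.38 and -0.24. Without ISO replicate 2, the lowest ISO library, it stood at -0.63 (adjusted p = 0.0631) and -0.46 (adjusted p = 0.166). Prdx3 was then called for the mean of both PS groups (-0.54, adjusted p = 0.0486 in edgeR). With all libraries that value was -0.43 (adjusted p = 0.115). Sod2 stood at 311.0, 272.2, 500.7, 585.3, 571.5 and 589.6 CPM in ISO, between 311.7 and 425.2 CPM (median 389) at 100 nm and between 351.4 and 557.0 CPM (median 402) at 1 µm. Its log2 fold change was -0.13 (SE 0.17, adjusted p = 0.637) and -0.067 (SE 0.17, adjusted p = 0.829). In batch 2 the PS libraries lay below ISO, as in Sod1 (33.4% of all genes separated there in either direction), and in batch 1 they lay within the ISO range. Without ISO replicates 1 and 2 Sod2 stood at -0.42 (adjusted p = 0.0878) and -0.32 (adjusted p = 0.144).

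Prdx5, which serves mitochondria, peroxisomes and cytosol and had the highest median level per kb, stood at 224.6, 782.2, 365.4, 700.5, 657.7 and 463.9 CPM in ISO. It ranged from 397.7 to 542.4 CPM at 100 nm and from 351.2 to 554.9 CPM at 1 µm, so that all 12 PS libraries lay within the ISO range. Its log2 fold change was -0.17 (SE 0.26, adjusted p = 0.691) and -0.21 (SE 0.25, adjusted p = 0.613), and without ISO replicates 1 and 2 it was -0.25 and -0.29. Without ISO replicate 2 alone, the highest library, it was 0.070 and 0.0049, and without ISO replicate 1 alone, the lowest, -0.40 and -0.42. The batches gave opposite signs, 0.093 and 0.10 in batch 1 and -0.60 and -0.62 in batch 2. In batch 2 the PS libraries lay below ISO, where 33.4% of all genes separated in either direction. Prdx4, the secretory pathway member, was low in every library, at 12.3 to 32.9 CPM in ISO, 17.4 to 22.8 CPM at 100 nm and 12.1 to 22.4 CPM at 1 µm. Its log2 fold change was -0.14 (SE 0.23, adjusted p = 0.719) and -0.32 (SE 0.23, adjusted p = 0.367), and without ISO replicates 1 and 2 it was -0.19 and -0.37. In batch 1 it was 0.060 and -0.027 and in batch 2 -0.37 and -0.75.

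Catalase, the peroxisomal enzyme that breaks down hydrogen peroxide without a thiol partner, stood at 184.3, 120.0, 153.1, 134.5, 132.2 and 179.5 CPM in ISO. The ISO+100 nm PS libraries ranged from 92.9 to 172.9 CPM (median 104) and the ISO+1 µm PS libraries from 102.4 to 292.9 CPM (median 125.0), with overlap in both cases. The log2 fold change was -0.25 (SE 0.22, adjusted p = 0.473) and 0.027 (SE 0.22, adjusted p = 0.952), and without ISO replicates 1 and 2 it was -0.094 and 0.16. Batch 1 gave negative estimates (-0.51 and -0.31), as it did for Prdx6 and Prdx3. For Cat batch 2 gave 0.22 and 0.46.

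**Figure D4:**
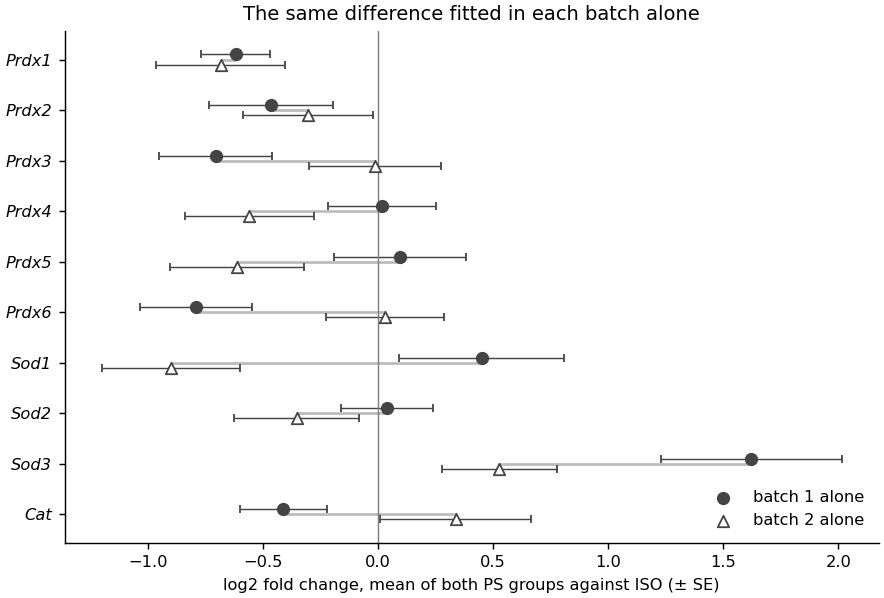
Log2 fold change between the average of the PS groups and ISO (x axis, ± SE) for each member (y axis), fitted in batch 1 alone (filled circles) and in batch 2 alone (open triangles). Prdx1 (-0.62 and -0.68) and Sod3 (1.62 and 0.53) lie on the same side of 0 in both batches, and Sod1 (0.45 and -0.90) does not.

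The particle sizes were compared directly at the same dose and duration. Of the 10 members 0 passed between 1 µm and 100 nm, as did 0 of all 14623 genes (0%), with 49 genes at an unadjusted p under 0.05 in edgeR and 0 calls by limma or DESeq2 among the members. The 95% interval of the log2 difference, 1 µm minus 100 nm, was -0.31 to 0.31 for Prdx1 and -0.75 to 0.53 for Sod3. For Sod1 it was -0.74 to 0.63 and for Cat -0.19 to 0.74. The data did not exclude a size difference within these bounds, and they do not show that the sizes act alike.

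The members depend on other genes for reducing power, metals and import, and 47 such partners were listed. All 47 were tested. At 100 nm 0 rose and 5 fell (Txn1, Glrx, Glrx2, Glrx3 and Pex13), and at 1 µm 0 rose and 3 fell (Txn1, Glrx3 and Pex13). These are 10.6% and 6.38% of the list. Of all genes 9.57% and 7.39% were called in either direction, and 5.69% and 4.5% were called lower. The partners' median log2 fold change was -0.25 and -0.24. By role, 1 of 10 genes of the thioredoxin system, 3 of 13 of the glutathione system and 1 of 4 of peroxisomal import fell at 100 nm. At 1 µm 1 gene fell in each of these groups. The counts are small, and no role was tested against the 5.69% and 4.5% of all genes. Methionine sulfoxide repair (4 genes) and mitochondrial NADPH supply (2 genes) gave 0 calls. None of the 4 metal supply genes, which include Ccs, the copper chaperone of Sod1, passed at either size. With library totals in place of TMM none of these partners fell: 3 others rose at 100 nm (Gpx3 by 0.72, Srxn1 by 0.54 and Xdh by 0.58 on the log2 scale) and 1 at 1 µm (Xdh by 0.60), named here after their values were seen. On those totals 1372 of all 14623 genes were called higher at 100 nm and 992 at 1 µm. The median of all genes was then 0.25 and 0.22, so these rises include a shift of all genes. The 10 sources of superoxide and peroxide, among them the oxidases Cybb and Nox4, gave 0 calls at both sizes with TMM.

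Txn1, the cytosolic thioredoxin that recharges Prdx1 and Prdx2, had the lowest estimate of the called partners. It stood at 50.1, 195.9, 56.5, 62.4, 58.8 and 69.5 CPM in ISO, at 62.2, 59.8, 67.8, 55.6, 60.5 and 31.3 CPM at 100 nm and at 61.9, 60.2, 63.4, 64.8, 27.5 and 34.8 CPM at 1 µm. ISO replicate 2 was the one high library, and apart from it only the 3 PS libraries of batch 2 stood apart, below all other libraries. Its log2 fold change was -0.84 (SE 0.26, adjusted p = 0.0475 in edgeR) and -0.83 (SE 0.25, adjusted p = 0.0484 in edgeR). Without ISO replicate 2 it was -0.40 (adjusted p = 0.201) and -0.44 (adjusted p = 0.140), and the calls at both sizes ended. They also ended without ISO replicate 4, 5 or 6 or without any single PS library, and held in 2 of 18 fits at each size.

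Glrx3, a glutaredoxin of iron handling, stood at 145.3, 273.2, 132.2, 151.2, 93.3 and 112.2 CPM in ISO and at 71.4 to 98.4 CPM (median 88.9) at 100 nm and 81.7 to 109.6 CPM (median 92.3) at 1 µm. Glrx3 fell at both sizes, with log2 fold changes of -0.83 (SE 0.20, adjusted p = 0.0206) and -0.71 (SE 0.20, adjusted p = 0.0377). In batch 1 no PS library reached the ISO range, a separation seen in 13.4% of all genes in either direction, and over all libraries 4 of 12 PS libraries lay within it. Without ISO replicate 2 the values were -0.56 (adjusted p = 0.0229) and -0.46 (adjusted p = 0.0431). Without ISO replicates 1 and 2 they were -0.49 (adjusted p = 0.0815) and -0.40 (adjusted p = 0.107), and both calls ended. Both also ended in limma, at -0.46 (adjusted p = 0.0719) and -0.39 (adjusted p = 0.106). The call held in 16 of 18 fits with 1 library left out at 100 nm, ending without ISO+100 nm PS replicate 2 or 6. At 1 µm it held in 8 of 18, ending without ISO replicate 4, ISO+100 nm PS replicate 1, 3, 4 or 6, or any ISO+1 µm PS library but replicate 5.

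Glrx, the cytosolic glutaredoxin, stood at 25.3 to 42.3 CPM in ISO, 15.1 to 35.7 CPM at 100 nm and 18.5 to 45.3 CPM at 1 µm. It fell at 100 nm (log2 -0.63, SE 0.17, adjusted p = 0.0294) and did not pass at 1 µm (-0.48, adjusted p = 0.0741). Glrx2, its mitochondrial relative, fell at 100 nm (-0.60, SE 0.18, adjusted p = 0.0425) and stood at -0.57 at 1 µm (adjusted p = 0.0518), and without ISO replicate 2 the first was -0.39 (adjusted p = 0.0955). Whether either gene differed between sizes was tested over all genes, with 0 calls. Pex13, part of the peroxisomal import pore that catalase passes, fell at both sizes (-0.46, adjusted p = 0.0494, and -0.50, adjusted p = 0.0376). With the GC correction Pex13 stood at 0.014 and 0.049, so that its direction turned. With 1 library left out, the Pex13 call held in 4 of 18 fits at 100 nm and 7 of 18 at 1 µm, the Glrx call at 100 nm in 12 of 18 and the Glrx2 call in 4 of 18.

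**Figure D5:**
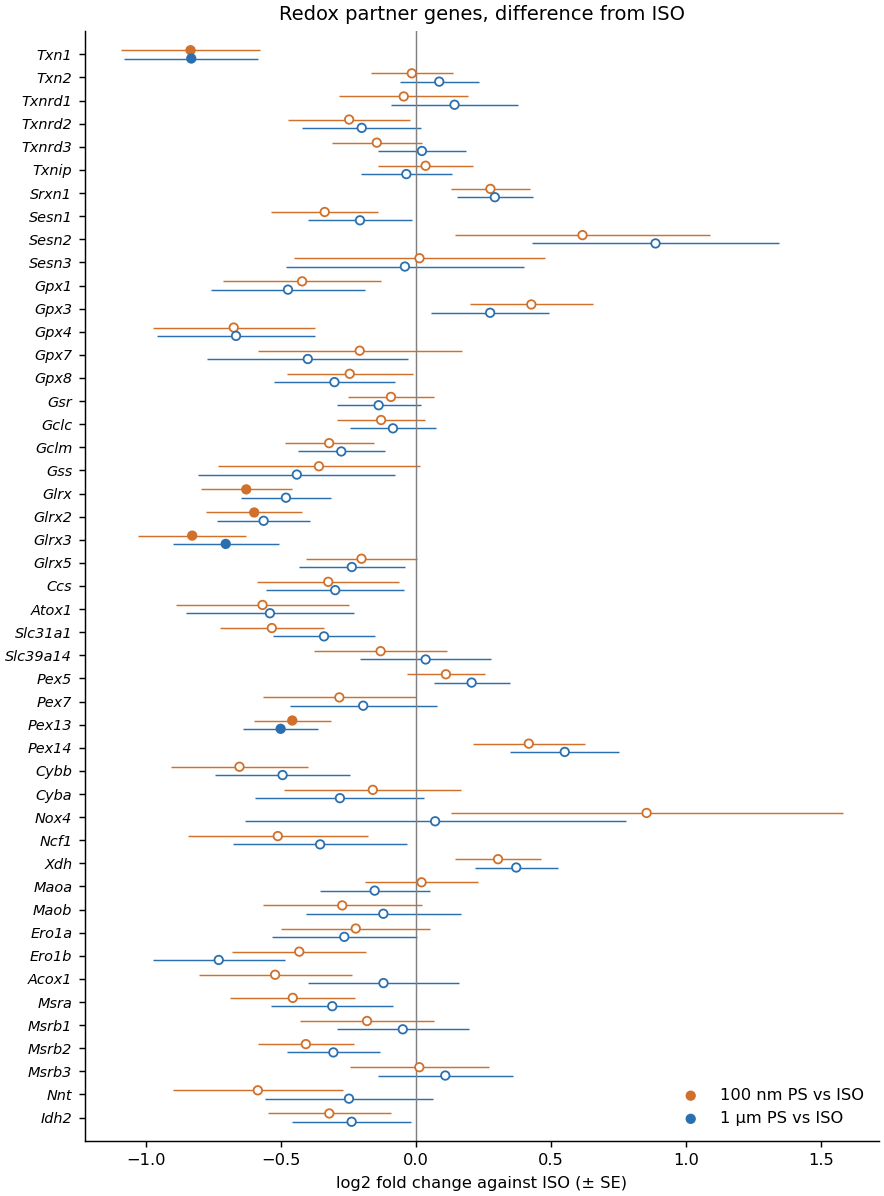
Log2 fold change against ISO (x axis, ± SE) of the 47 redox partner genes (y axis) at 100 nm and 1 µm, with filled points for an adjusted p under 0.05. The 5 filled points at 100 nm and the 3 at 1 µm all lie left of 0 with TMM scaling.

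Which libraries the calls rest on differed between the members. The Prdx1 call at 1 µm held without any 1 of 18 libraries and that at 100 nm ended only without ISO+100 nm PS replicate 6, the group's single batch 2 library. The Sod3 call at 100 nm ended without ISO+100 nm PS replicate 1, 2, 3 or 6. The Sod3 call at 1 µm held in 5 of 18 fits and ended without ISO replicate 4 or 6, without any ISO+100 nm PS library, or without any ISO+1 µm PS library but replicate 5. The estimate for Sod3 stayed between 0.88 and 1.35 (log2) at 100 nm and between 0.80 and 1.25 at 1 µm across these fits. For the mean of both PS groups the calls of Prdx1 and Sod3 held in 18 of 18 fits.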

How the data were processed

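The authors deposited 2 tables of gene counts, 1 per batch, from poly(A) libraries of heart RNA extracted with TRIzol, per the labels' protocols. Values of batch 1 are whole counts. In batch 2, 19.6% of the nonzero values are not whole, so these deposited values are estimated counts and were rounded. Tools listed in the submitters' processing notes, with no roles, were featureCounts 1.5.0-p3, StringTie 1.3.3b, HISAT2 2.0.5, fastp and DESeq2, with the GRCm39 build. Neither the counter of batch 2 nor the strand setting of the counting was given in the sources used here. Tables were joined on 22145 Entrez and Ensembl ID pairs (GENCODE M21) and 13415 identical symbols. Joined genes held at least 98.9% of batch 1 counts. In batch 2 they held 85.2% to 87.5% for ISO and 93.1% to 95.8% for PS.

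Genes were filtered with filterByExpr (minimum count 10), scaled by TMM and tested in edgeR 4.0.16 (R 4.3.3, quasi-likelihood F test, robust) with group and batch over all 18 libraries and 14 residual degrees of freedom. Benjamini-Hochberg adjustment ran over all 14623 genes. The scripts were tested on simulated data. Alternatives were limma 3.58.1 (voom with quality weights), DESeq2 1.42.0, other scalings and filters, each batch alone, a replicate block, a GC correction (a spline with 5 degrees of freedom) and leaving out libraries. The members, the 47 partners and the marker lists were chosen with earlier results of these data known. All 10 members are named, and of the partners those called at either size plus the 3 with the smallest p. Gpx3, Srxn1 and Xdh are named outside this rule, after their values were seen, and Ccs, Cybb and Nox4 only as examples of what a list holds. No pair of libraries in a group agreed within sampling noise.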

Additional observations from a re-analysis of the deposited data

Results flagged for a closer look

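Over the 30 combinations of member and group, 4 had 1 library far from the other 5. In each of the 4 the gap to the nearest library was large against the whole range of the group. Chance alone gives this in about 1 in 20 groups of like libraries. Each group here mixes 2 batches and the combinations share the same libraries, so that rate does not apply directly. Prdx2 in ISO+100 nm PS replicate 6 stood at 452.6 CPM, with the next library at 346.5 CPM. Sod1 in the same library stood at 194.4 CPM, with the next at 141.2 CPM. This library is the only one of its group from batch 2, and the batch 2 mean was above the batch 1 mean for both genes in every group, although the highest Prdx2 in ISO (797.7 CPM) was in a batch 1 library. Prdx6 in ISO replicate 2 stood at 379.0 CPM, with the next library at 213.2 CPM. Cat in ISO+1 µm PS replicate 5, a batch 2 library, stood at 292.9 CPM, with the next at 149.8 CPM. That library also held the group's highest Prdx3 (343.7 CPM), Prdx6 (239.3 CPM) and Sod2 (557.0 CPM) and its lowest Prdx4 (12.1 CPM) and Prdx5 (351.2 CPM).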

How the results depend on the processing

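Prdx1 kept a negative and Sod3 a positive estimate against ISO under every alternative run, and the calls were less stable. The members called at 100 nm (2) became 1 on library totals, 1 without ISO replicates 1 and 2, and 0 with no batch term, in batch 2 alone, with only the compared groups fitted or with the GC correction. At 1 µm (2) they became 1 on library totals or with no filter on low counts, and 0 with no batch term, in either batch alone, with only the compared groups fitted or with the GC correction. For the mean of both sizes (2) they became 1 on library totals or with no batch term, and 0 in batch 2 alone or with the GC correction. The partners called at 100 nm (5) became 1 with no filter or without ISO replicates 1 and 2, 2 in limma, and 0 with no batch term, in batch 2 alone, with only the compared groups fitted or with the GC correction. At 1 µm (3) they became 1 in batch 1 alone, 6 in DESeq2, 7 at an adjusted p under 0.1, and 0 with no filter, with no batch term, in batch 2 alone, with only the compared groups fitted or with the GC correction. On library totals 3 and 1 partners were called, none of them among the 5 and 3. Leaving out 1 library gave 0 to 2 members at 100 nm, 1 to 2 at 1 µm, 0 between sizes, 2 to 3 for the mean of both sizes, 0 to 6 partners at 100 nm and 0 to 7 at 1 µm. The cause of these changes was not tested, beyond the fewer samples in some fits. With the GC correction 0 of all genes were called at either size (2932 and 2319 at an unadjusted p under 0.05 in edgeR).

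Replicate numbers did not pair the libraries: over 18 same-numbered pairs the correlation of deviations ran from -0.437 to 0.229, it passed 0.1 in 3, and 0 libraries correlated best with their own number. With the replicate block 0 members were called at 100 nm, 0 at 1 µm and 1 for the mean of both sizes, and 0 partners at either size. With that block the sign turned for Prdx1 -0.013 and Prdx2 -0.017 (1 µm against 100 nm), Prdx4 0.064 and Sod1 0.14 (100 nm), Sod1 0.017 and Cat -0.0045 (1 µm) and Sod1 0.076 (the mean of both sizes).

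The sign of some uncalled estimates, and of Pex13, turned with the setting. Library totals moved the median of all genes to 0.25 at 100 nm, 0.22 at 1 µm and 0.23 for the mean of both sizes, and relative to it Prdx4, Prdx5, Sod1 and Sod2 were negative in these 3 comparisons and Cat was -0.23, 0.0041 and -0.11. On library totals without TMM this held for Prdx1 -0.051 and Prdx2 -0.038 (1 µm against 100 nm), Prdx4 0.15, Prdx5 0.12, Sod1 0.19, Sod2 0.11 and Cat 0.020 (100 nm), Prdx4 0.038, Prdx5 0.076, Sod1 0.14, Sod2 0.11 and Cat 0.12 (the mean of both sizes) and Prdx5 0.031, Sod1 0.087 and Sod2 0.12 (1 µm). In batch 2 alone this held for Prdx1 -0.16, Prdx2 -0.079 and Sod1 0.041 (1 µm against 100 nm), Prdx6 0.081 (1 µm), Prdx6 0.032 and Cat 0.34 (the mean of both sizes) and Cat 0.22 (100 nm). Without ISO replicates 1 and 2 together this held for Prdx1 -0.0098 and Prdx2 -0.012 (1 µm against 100 nm) and Cat 0.035 (the mean of both sizes). With the GC correction this held for Prdx2 -0.0042 (1 µm against 100 nm), Sod2 0.18 and Pex13 0.014 (100 nm), Sod2 0.27 and Pex13 0.049 (1 µm) and Sod2 0.23 (the mean of both sizes). In limma this held for Prdx2 -0.00094, Prdx5 0.029 and Sod1 0.047 (1 µm against 100 nm) and Cat 0.010 (the mean of both sizes). In batch 1 alone this held for Prdx4 0.060, Prdx5 0.093, Sod1 0.44 and Sod2 0.0094 (100 nm), Prdx4 0.017, Prdx5 0.096, Sod1 0.45 and Sod2 0.039 (the mean of both sizes), Prdx5 0.10, Sod1 0.46, Sod2 0.069 and Cat -0.31 (1 µm) and Prdx5 0.0062, Sod1 0.025 and Sod3 0.0045 (1 µm against 100 nm). With only the compared groups fitted this held for Prdx5 0.0088 and Sod1 0.036 (1 µm against 100 nm), Sod1 0.084 (100 nm) and Cat -0.045 (1 µm). With no batch term this held for Sod1 0.16 (1 µm against 100 nm). Leaving out 1 library turned the sign of estimates with these ranges: Prdx1 -0.038 to 0.029 (1 µm against 100 nm), Prdx2 -0.022 to 0.047 (1 µm against 100 nm), Prdx4 -0.32 to 0.038 (100 nm), Prdx5 -0.40 to 0.070 (100 nm), Prdx5 -0.42 to 0.0049 (1 µm), Prdx5 -0.11 to 0.020 (1 µm against 100 nm), Prdx5 -0.41 to 0.037 (the mean of both sizes), Sod1 -0.43 to 0.11 (100 nm), Sod1 -0.45 to 0.050 (1 µm), Sod1 -0.18 to 0.040 (1 µm against 100 nm), Sod1 -0.44 to 0.030 (the mean of both sizes), Sod2 -0.27 to 0.00030 (100 nm), Sod2 -0.18 to 0.052 (1 µm), Sod2 -0.23 to 0.026 (the mean of both sizes), Cat -0.23 to 0.16 (1 µm), Cat -0.27 to 0.035 (the mean of both sizes). Library totals without TMM were chosen after seeing the data. Counts of the members ranged from 118 (Sod3, ISO replicate 2) to 13231 (Prdx5), and the first is the least precise.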
